A study of Mus musculus with 10 samples.

Results

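The 42 genes described here encode the enzymes and partner proteins that place, read and remove methyl groups on DNA and methyl or acetyl groups on histones, together with 3 ATP-dependent chromatin remodellers. They were chosen by symbol, and all 42 were found among the 46071 gene rows of the count table. The filter on low counts kept 41 of them among 14820 tested genes, and only Tet1 was too low to test.

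Liver RNA was sequenced from the offspring of 3 kinds of cross in 10 libraries. Control offspring (control 1 to 4) had 2 parents with the genotype IRlox/lox; Albumin-Cre-/-, that is, a floxed insulin receptor gene and no Cre recombinase. FL offspring (FL 5 to 7) had a LIRKO father and a control mother, and the reverse cross, LIRKO mother with control father, gave the ML offspring (ML 8 to 10). LIRKO mice are IRlox/lox; Albumin-Cre+/-, and the Albumin promoter drives Cre in hepatocytes, so that these cells lose the insulin receptor. All parents therefore carried the floxed gene, and what differed was which parent, if any, also carried Cre. The labels used here do not give the offspring's own Cre genotype, sex, age or litter, and they do not state outright that the 10 libraries come from 10 animals, so the p-values speak only of the spread among these libraries.

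DNA methylation is placed on cytosines in CG dinucleotides by DNMT3A and DNMT3B and copied to the new strand after replication by DNMT1 with UHRF1. TET enzymes oxidise the methyl mark and the glycosylase TDG excises oxidised bases. Histone marks work in parallel: methylation of lysine 4 on histone H3 and acetylation go with active promoters and enhancers, and methylation of lysine 27 by the Polycomb complex goes with silent ones. Many of these enzymes use S-adenosylmethionine, acetyl-CoA or 2-oxoglutarate, which are products of liver metabolism. For that reason such enzymes are often examined when parental metabolism is studied in offspring.

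The libraries held 18655506 to 39379940 counts, the lowest in control 1. The libraries differed in the balance of long and short genes. Long genes were lowest in ML 9 and control 1 and highest in FL 5. Over the 2307 tested genes with 8 kb or more of exon, the median deviation from the gene's own mean was -0.34 on the log2 scale in control 1 and -0.65 in ML 9, 0.40 in FL 5 and -0.18 to 0.29 in the others. Over the 1249 genes under 1 kb it was 0.28 in control 1, 1.22 in ML 9, -0.39 in FL 5 and -0.34 to 0.19 in the others. The length of a gene here is the union of its annotated exons. The 41 tested chromatin genes had a median of 7377 bp of exon, against 3984 bp over all tested genes with a known length, and 19 of the 41 had 8 kb or more. The counts and medians over the 41 genes are therefore also given without control 1 and ML 9, without FL 5, and after removal of the dependence on exon length and GC content in each library, and a single gene's value is repeated where such a change moves its fold by over 1.5 times.

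The liver origin of the libraries was checked with marker genes. The summed level of 8 hepatocyte markers was 57954 to 102287 CPM (each gene's share of the library's counts, scaled up and corrected by TMM factors), and none of the 8 was at 0 in any library. The summed level of 6 erythroid markers was 626 CPM in control 1 and 184 to 257 CPM in the other controls, 127 to 249 CPM in FL, and 2114 CPM in ML 9 against 313 and 382 CPM in ML 8 and ML 10. For 7 T and NK cell markers it was 2.34 to 3.36 CPM in controls, 1.67 to 3.13 CPM in FL, 11.5 CPM in ML 9 and 3.70 and 3.44 CPM in ML 8 and ML 10. For 7 Kupffer cell markers it was 225 to 392 CPM in controls, 229 to 315 CPM in FL, 910 CPM in ML 9 and 341 and 203 CPM in ML 8 and ML 10. ML 9 was thus the highest library in these 3 lists, and control 1 the highest control. Their tested genes had a median of 768, 2388 and 2036 bp of exon, against 3984 bp over all tested genes. The order was the same for B and plasma cell and for stellate cell markers, but not for every list. Cholangiocyte markers were lowest in ML 9, at 21.4 CPM. Sinusoidal endothelial markers were highest in ML 9 (280 CPM), but control 1 (191 CPM) lay below control 2 (205 CPM). No erythroid, T and NK or Kupffer marker list had a gene at 0 in any library. The part of other cell types in the results below was not tested, and in bulk tissue fewer cells of a type cannot be told apart from less RNA per cell.

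Levels per length ranked the genes in control liver. The quantity compared was the mean CPM per kb of exon. Mbd3, a subunit of the NuRD deacetylase complex, was at the top with 23.2 ± 2.65 (SD, n = 4), followed by the acetyltransferase gene Kat2b with 17.3 ± 5.67, the methyl-CpG binding protein genes Mbd1 with 13.1 ± 10.1 and Mbd2 with 11.7 ± 1.62, and the H3K9 methyltransferase gene Ehmt2 with 9.86 ± 2.75. At the other end stood Tet2 with 0.362 ± 0.234, Uhrf1 with 0.216 ± 0.0914, Dnmt3b with 0.191 ± 0.0427 and Tet1 with 0.00732 ± 0.00519. Of the 41 pairs of neighbours in this order, only Dnmt3b and Tet1 had control libraries that did not overlap, so the order between most neighbours is within the spread of the libraries.

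**Figure D1:**
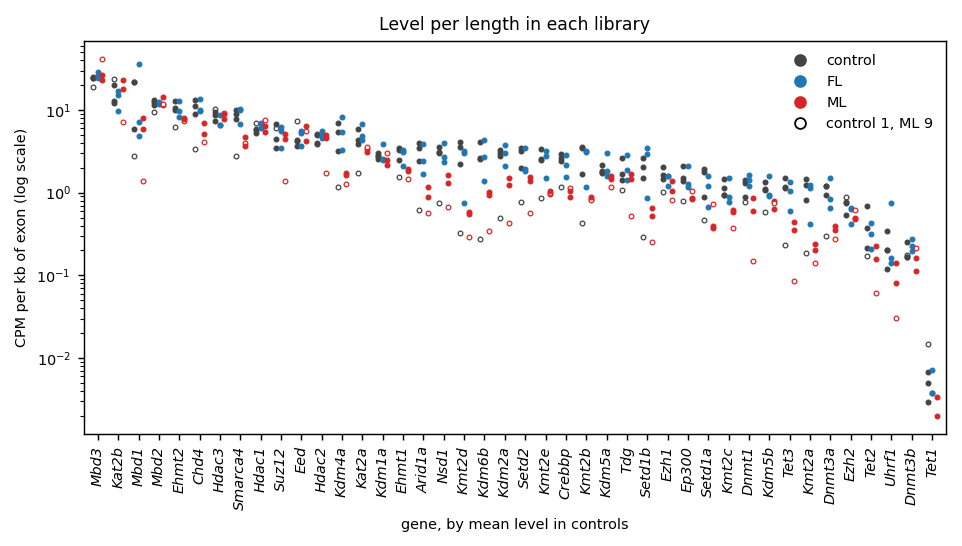
Level of each of the 42 chromatin genes, in CPM per kb of exon on a log axis, with 1 point per library and genes ordered by their mean in controls. Open points are control 1 and ML 9, and a level of 0 (Tet1 in ML 9) is not drawn. The levels fall from 23.2 in Mbd3 to 0.00732 in Tet1, and the open points lie low for many genes in the middle of the order.

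Within pairs of related enzymes the same gene was the higher in every library for most pairs, though the ratio varied. The ratios below compare levels per kb of exon within a library. Ezh1 lay above Ezh2, the alternative catalytic subunits of Polycomb repressive complex 2, in 10 of 10 libraries, by 1.14 to 3.76 times. Dnmt3a lay above Dnmt3b by 1.26 to 7.70 times and Tet3 above Tet2 by 1.35 to 7.08 times, each in 10 of 10. The same held for Ehmt2 over its partner Ehmt1 (3.06 to 4.97 times), Crebbp over Ep300 (1.05 to 2.09 times), Kat2b over Kat2a (1.46 to 13.9 times) and Kdm5a over Kdm5b (1.28 to 3.16 times). Hdac1 lay above Hdac2 in 10 of 10 libraries, by 1.19 to 4.45 times, with the highest ratio in ML 9. Hdac3 lay above Hdac1 in 9 of 10 libraries and below it in FL 5 (0.935). Another pair, of nearly equal length, changed order in more libraries. Kmt2d (19931 bp) lay above Kmt2c (20291 bp) by 1.97 to 4.37 times in control 2, 3 and 4 and FL 5 and 6, but was below it in control 1 (0.341), FL 7 (0.974) and ML 8, 9 and 10 (0.952, 0.768 and 0.923). Their exons differ in GC content, 58.4% in Kmt2d and 47.6% in Kmt2c. Kmt2a was at 0.353 to 0.484 times the level of Kmt2b in controls, 0.351 to 0.393 times in FL and 0.173 to 0.286 times in ML. The ML libraries thus lay below all others in this ratio, which was picked after its values were seen and has no test.

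The comparison of ML with control asks whether offspring of mothers without the hepatic insulin receptor differ from control offspring. Most chromatin genes had lower values in ML livers, the H3K4 methyltransferase genes with the largest differences, but no gene passed the edgeR test. By edgeR's quasi-likelihood test, 0 of the 41 genes and 0% of all 14820 genes had a Benjamini-Hochberg adjusted p under 0.05. At an unadjusted p under 0.05, 15 of 41 were lower (36.6%) and 0 higher, where 7.33% of all tested genes were lower and 8.81% higher. By DESeq2, 1 of the 41 with an adjusted p, Kmt2a, was under 0.05, where 0.356% of all genes were, and by limma-voom 0 of 41 and 0% of all genes. The fold change was below 0 for 37 of 41 (52.9% of all tested genes), and the median log2 fold change was -0.83 against -0.05 over all genes. The 4 genes above 0 were Mbd2, Mbd3, Eed and Hdac1.

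The H3K4 methyltransferase family had the lowest median log2 fold change of the roles. All 7 members had a log2 fold change below -1 in ML against control, from -2.43 to -1.08 with a median of -1.42, and all 7 were at an unadjusted p under 0.05, as were 7.33% of all genes in that direction. With the length and GC trend removed the 7 lay between -1.36 (Kmt2a) and -0.40 (Kmt2c), and Kmt2a and Kmt2d alone were at an unadjusted p under 0.05. Kmt2a encodes MLL1, which methylates H3K4 at many developmental promoters, and it had the lowest p of the 41 (ENSMUSG00000002028, chromosome 9, 44803355 to 44881296, GRCm38). Its level was 3.13, 20.8, 13.7 and 24.2 CPM in control 1 to 4, 20.4, 19.2 and 6.93 CPM in FL 5 to 7, and 4.05, 2.35 and 3.38 CPM in ML 8 to 10. All ML libraries lay below control 2, 3 and 4 and below the FL libraries, while control 1 lay within the ML range. Kmt2a had a log2 fold change in ML of -2.24 (SE 0.63, edgeR adjusted p 0.302) and a DESeq2 adjusted p of 0.0490.

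Kmt2d and Kmt2c encode the MLL4 and MLL3 enzymes that monomethylate H3K4 at enhancers. Kmt2d (ENSMUSG00000048154, chromosome 15, 98831669 to 98871204) was at 6.44, 71.8, 44.8 and 81.3 CPM in control 1 to 4, 63.0, 60.3 and 14.9 CPM in FL and 11.7, 5.80 and 10.9 CPM in ML. Control 1 again lay among the ML libraries and FL 7 was the lowest FL library. This gave a log2 fold change in ML of -2.43 (SE 0.75, edgeR adjusted p 0.302). Kmt2c (ENSMUSG00000038056, chromosome 5, 25271798 to 25498783) was at 19.2, 29.5, 23.2 and 19.0 CPM in controls, 30.5, 18.2 and 15.5 CPM in FL and 12.5, 7.69 and 12 CPM in ML. Here all 3 ML libraries lay below all 4 controls, control 1 included. Kmt2c had a log2 fold change in ML of -1.08 (SE 0.33, edgeR adjusted p 0.302).

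The other 4 genes of this family, all lower in value in ML, were Setd1b, Kmt2b, Setd1a and Kmt2e. Setd1b is a catalytic subunit of a SET1 complex (ENSMUSG00000038384, chromosome 5, 123142193 to 123168629). It was at 3.53, 18.01, 24.9 and 32.1 CPM in controls, 42.2, 35.3 and 10.4 CPM in FL and 7.83, 3.06 and 6.36 CPM in ML. The ML libraries lay below the FL libraries and below control 2 to 4, but control 1 was lower than ML 8 and ML 10. Its log2 fold change in ML was -1.77 (SE 0.68), and Kmt2b was at -1.42 (SE 0.60), Setd1a at -1.34 (SE 0.52) and Kmt2e at -1.22 (SE 0.43), each with an edgeR adjusted p of 0.302. With the length and GC trend removed Setd1b was at -0.91, Kmt2b at -0.59 and Setd1a at -0.76, and without control 1 and ML 9 Setd1a was at -1.98. Setd1a shares 51.9% of its exon bases with Gm49388 on the same strand, so its counts are uncertain. Kmt2e encodes a relative of these enzymes whose methyltransferase activity is doubted.

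Promoter sequences are shown for Kmt2a, the gene with the lowest p in this comparison, for Kmt2c, the H3K4 methyltransferase gene whose ML libraries all lay below the controls, and for Mbd3 and Eed, which were above 0. Each is the 250 bases before the RefSeq start of the gene on GRCm38.p6, on the minus strand for all 4, written 5′ to 3′ with CG dinucleotides, the substrate of the DNA methyltransferases, in capitals. The windows are chr9:44881290-44881539 for Kmt2a, chr5:25498784-25499033 for Kmt2c, chr10:80399532-80399781 for Mbd3 and chr7:89980977-89981226 for Eed.
Kmt2a: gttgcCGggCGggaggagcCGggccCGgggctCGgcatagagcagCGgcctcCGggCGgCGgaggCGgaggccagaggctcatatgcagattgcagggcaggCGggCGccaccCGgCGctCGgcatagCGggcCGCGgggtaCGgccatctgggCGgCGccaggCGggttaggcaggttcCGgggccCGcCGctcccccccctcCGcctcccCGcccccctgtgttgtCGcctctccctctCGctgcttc
Kmt2c: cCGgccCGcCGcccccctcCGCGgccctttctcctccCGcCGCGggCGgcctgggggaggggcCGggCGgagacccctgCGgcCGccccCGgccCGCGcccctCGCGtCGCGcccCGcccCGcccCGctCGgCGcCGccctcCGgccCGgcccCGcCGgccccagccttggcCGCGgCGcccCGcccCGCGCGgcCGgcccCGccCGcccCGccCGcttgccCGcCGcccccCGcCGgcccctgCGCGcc
Mbd3: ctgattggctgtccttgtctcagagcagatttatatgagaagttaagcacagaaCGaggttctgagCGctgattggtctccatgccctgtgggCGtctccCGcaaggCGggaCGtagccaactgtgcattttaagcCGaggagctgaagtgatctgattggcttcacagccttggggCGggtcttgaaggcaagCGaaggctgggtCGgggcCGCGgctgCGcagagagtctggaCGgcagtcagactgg
Eed: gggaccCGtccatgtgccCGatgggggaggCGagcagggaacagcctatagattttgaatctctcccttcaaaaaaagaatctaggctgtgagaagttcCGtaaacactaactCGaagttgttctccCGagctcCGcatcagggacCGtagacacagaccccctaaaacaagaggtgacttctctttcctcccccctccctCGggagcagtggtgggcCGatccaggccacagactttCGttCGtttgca
Kmt2a has 29 CG dinucleotides, Kmt2c 48, Mbd3 14 and Eed 12. These 4 were picked by their values in ML, and a relation of those values to CG content was not tested. Kdm4a and Dnmt1, also below 0 in ML, have 12 and 2. Mbd2 and Hdac1, above 0, have no window. A window was found for 31 of the 42 genes, with a median of 21 CG dinucleotides and a range of 2 (Dnmt1) to 51 (Tet2), against a median of 6 over all 32851 windows. The GC box GGGCGG, on either strand, was in 21 of the 31 windows (67.7%, against 32.7% of all windows), 12 times in Kmt2c, 4 times in Kmt2a, once in Mbd3 and not in Eed. The ETS core CCGGAAG was in 0 of 31 (6.91% of all windows) and the E-box CACGTG in 2 (6.02%). Where a gene has several RefSeq starts, 1 window was used. These are letters in a window, and no methylation was measured here.

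Among the DNA methyltransferases, Dnmt3a and Dnmt1 had lower values in ML and Dnmt3b differed little. Dnmt3a, a de novo methyltransferase gene (ENSMUSG00000020661, chromosome 12, 3806007 to 3914443), was at 4.96, 15.7, 20.1 and 20 CPM in controls, 25.1, 14.1 and 10.7 CPM in FL and 6.59, 4.56 and 5.89 CPM in ML. The ML libraries lay below FL and below control 2 to 4, and control 1 was within the ML range. In ML its log2 fold change was -1.42 (SE 0.48, edgeR adjusted p 0.302), -0.57 with the length and GC trend removed and -0.49 with a surrogate variable. Dnmt1, the maintenance methyltransferase gene (ENSMUSG00000004099, chromosome 9, 20907209 to 20959888), was at 5.76, 6.62, 9.76 and 10.5 CPM in controls, 12.04, 8.83 and 10.4 CPM in FL and 6.38, 1.11 and 4.37 CPM in ML. ML 8 lay within the control range, and ML 9 rested on 17 counts. Dnmt1 had a log2 fold change in ML of -1.03 (SE 0.49, edgeR adjusted p 0.314), and -0.59 without ML 9.

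Dnmt3b and Uhrf1 were close to the lower limit of detection. Dnmt3b (ENSMUSG00000027478, chromosome 2, 153649450 to 153687730) had 0.912, 0.841, 0.854 and 1.3 CPM in controls, 1.00, 1.16 and 1.40 CPM in FL and 0.578, 1.11 and 0.837 CPM in ML, and the groups overlapped. Its log2 fold change in ML was -0.24 (SE 0.41, edgeR adjusted p 0.772). Uhrf1, which recruits DNMT1 to newly replicated DNA (ENSMUSG00000001228, chromosome 17, 56303321 to 56323486), had 0.855, 0.510, 1.45 and 0.874 CPM in controls, 0.593, 0.695 and 3.17 CPM in FL and 0.604, 0.130 and 0.341 CPM in ML. FL 7 was the highest library for Uhrf1, and ML 9 had 2 counts. Uhrf1 had a log2 fold change in ML of -1.28 (SE 0.71, edgeR adjusted p 0.359). The summed level of 10 proliferation markers was 43.1 to 72.9 CPM in controls, 45.3 to 73.4 CPM in FL and 51.7 to 62.5 CPM in ML. Pcna alone gave 19.3 to 35.3 CPM of this sum, and single markers differed. Mcm2 and Mcm5 were highest in FL 7 (9.76 and 8.65 CPM). Mki67 and Top2a were lowest in ML 9 and ML 10, but Cdk1 and Tyms were highest in ML 9 (4.04 and 24.7 CPM). In ML 7 of the 10 were below 0 and 3 above, with a median of -0.85. The part of proliferation in the Uhrf1 and Dnmt3b values was not tested.

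Tet3 and Tet2 stood lower in ML, and Tet1 was barely detected. Tet3, a 5-methylcytosine dioxygenase gene (ENSMUSG00000034832, chromosome 6, 83362373 to 83459084), was at 3.88, 19.2, 25.2 and 19.8 CPM in controls, 22.7, 17.4 and 10.1 CPM in FL and 7.33, 1.43 and 5.96 CPM in ML. Control 1 again lay within the ML range and the FL libraries lay above all ML libraries. In ML its log2 fold change was -1.78 (SE 0.65, edgeR adjusted p 0.302). Tet2 (ENSMUSG00000040943, chromosome 3, 133463679 to 133545139) was at 2.91, 11.6, 3.60 and 6.35 CPM in controls, 7.26, 5.27 and 3.49 CPM in FL and 3.84, 1.04 and 2.67 CPM in ML. The groups overlapped, and control 2 was the highest library. Tet2 had a log2 fold change in ML of -1.26 (SE 0.56, edgeR adjusted p 0.306), and of -0.67 with the trend removed. Tet1 (ENSMUSG00000047146, chromosome 10, 62804570 to 62908996) had 4, 3, 4 and 2 counts in controls, 3, 2 and 2 in FL and 2, 0 and 1 in ML. A difference in Tet1 was not detectable at this depth. Tdg was at -0.48 (SE 0.45).

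The genes Mbd1, Mbd2 and Mbd3 did not move together. Mbd2 and Mbd3 were at 0.11 (SE 0.24) and 0.40 (SE 0.27) in ML, and Mbd1, a transcriptional repressor of methylated promoters, at -1.35 (SE 0.88). Mbd1 was the most uneven gene of the set, at 18.7, 145, 39.6 and 147 CPM in controls, 245, 48.0 and 32.9 CPM in FL and 54.0, 9.32 and 39.6 CPM in ML, and the 3 groups overlapped.

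Of the H3K36 methyltransferase genes, Nsd1 was at -1.12 (SE 0.49) and Setd2 at -1.01 (SE 0.51) in ML, and Nsd1 at -0.40 with the trend removed. In the Polycomb complex, values were smaller. Ezh2, its H3K27 methyltransferase (ENSMUSG00000029687, chromosome 6, 47530139 to 47595341), was at 5.93, 4.97, 5.18 and 3.63 CPM in controls, 4.22, 2.81 and 4.37 CPM in FL and 3.23, 4.17 and 3.29 CPM in ML. ML 8 and ML 10 lay just under the lowest control and ML 9 within the control range. Ezh2 had a log2 fold change in ML of -0.47 (SE 0.32, edgeR adjusted p 0.439), and Ezh1, Suz12 and Eed were at -0.49 (SE 0.32), -0.52 (SE 0.44) and 0.14 (SE 0.32). Suz12 was at -0.04 without control 1 and ML 9. The H3K9 methyltransferase genes Ehmt1 and Ehmt2 were at -0.63 (SE 0.33) and -0.36 (SE 0.30).

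All 6 histone demethylase genes had ML values below 0 (52.9% of all tested genes did), and their median was -0.84. Kdm6b, which removes H3K27 methylation, was at -1.65 (SE 0.72), Kdm2a at -1.17 (SE 0.59), Kdm5b at -0.51 (SE 0.34), Kdm5a at -0.42 (SE 0.29) and Kdm1a at -0.13 (SE 0.27). With the trend removed Kdm6b was at -0.99 and Kdm2a at -0.49, but Kdm5b, Kdm5a and Kdm1a lay above 0, at 0.24, 0.10 and 0.12. With a surrogate variable Kdm6b was at 0.16 and Kdm2a at 0.25, and the other demethylase genes stayed below 0. Kdm4a, an H3K9 and H3K36 demethylase gene (ENSMUSG00000033326, chromosome 4, 118136957 to 118180043), was at 6.78, 40.1, 18.5 and 31.4 CPM in controls, 48.1, 31.5 and 18.9 CPM in FL and 9.56, 7.43 and 10.0 CPM in ML. The FL libraries and control 2 to 4 lay above all ML libraries, and control 1 below them. Its log2 fold change in ML was -1.42 (SE 0.53, edgeR adjusted p 0.302).

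Deacetylase genes lay near 0 and acetyltransferase genes were uneven. Hdac1, Hdac2 and Hdac3 were at 0.12 (SE 0.25), -0.25 (SE 0.35) and -0.06 (SE 0.25). Crebbp, which encodes the acetyltransferase CBP, a coactivator for CREB (ENSMUSG00000022521, chromosome 16, 4081328 to 4213997), was at 15.7, 35.9, 33.2 and 39.3 CPM in controls, 38.7, 29.5 and 20.8 CPM in FL and 12.03, 15.3 and 14.1 CPM in ML. All ML libraries lay below all controls, control 1 by the smallest margin. Crebbp had a log2 fold change in ML of -1.17 (SE 0.36, edgeR adjusted p 0.302), and of -0.41 with the trend removed, where its unadjusted p was 0.131. Its paralogue Ep300 was at -0.67 (SE 0.36), or 0.10 with the trend removed, and Kat2a and Kat2b, the acetyltransferases of SAGA-type complexes, were at -0.25 (SE 0.38) and -0.10 (SE 0.41). Among the remodellers, the BAF subunit gene Arid1a was at -1.58 (SE 0.55), the BAF ATPase gene Smarca4 at -0.83 (SE 0.39) and the NuRD ATPase gene Chd4 at -0.77 (SE 0.42).

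**Figure D2:**
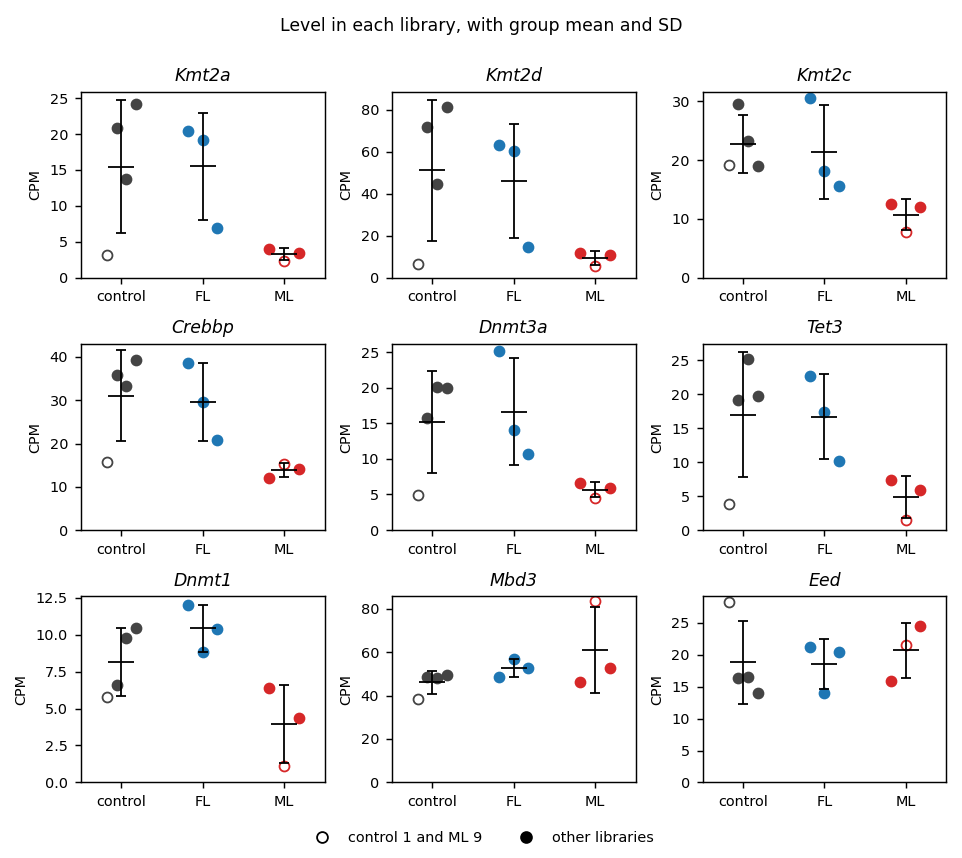
Level in CPM of 9 chromatin genes in each library, with group means and SD (control n = 4, FL n = 3, ML n = 3). Open points are control 1 and ML 9. Kmt2a in ML sits at 2.35 to 4.05 CPM, below control 2 to 4 and all FL libraries, control 1 sits with the ML libraries in Kmt2a, Kmt2d, Dnmt3a and Tet3, and Mbd3 and Eed show no such gap.

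Of the 41 genes, 3, Kmt2c, Kdm5a and Crebbp, had ML libraries entirely below the 4 controls, where 2.86% of all tested genes did, and 0 lay entirely above (2.17%). Without control 1, 26 of 41 lay entirely below (20.2% of all genes) and 0 above (19.5%), and without control 1 and ML 9, 29 of 41 (24.2%). The 12 that still overlapped were Uhrf1, Tet2, Tdg, Mbd1, Mbd2, Mbd3, Suz12, Eed, Hdac1, Hdac2, Hdac3 and Kat2b. Without ML 9 alone, 7 of 41 lay entirely below (5.13%) and 0 above (4.23%). Control 1 was thus the library on which overlap mostly rested: it was the lowest of the 10 for 12 genes, and ML 9 for 21. Over the 41 genes the median deviation from the gene mean was -0.59 in control 1, 0.45, 0.30 and 0.56 in control 2 to 4, 0.75, 0.29 and -0.01 in FL 5 to 7, and -0.30, -0.90 and -0.50 in ML 8 to 10.

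**Figure D3:**
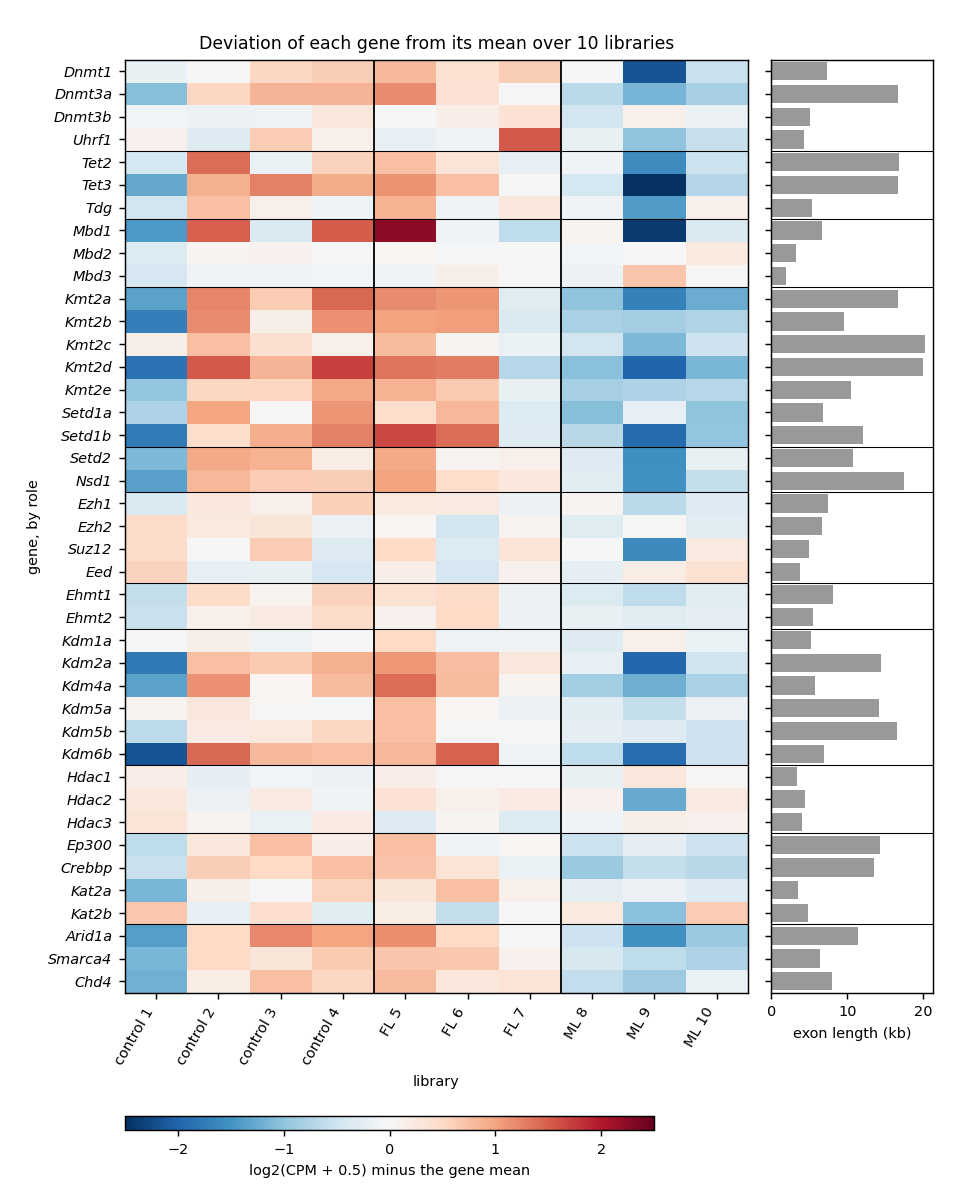
Deviation of log2(CPM + 0.5) from the gene's mean over the 10 libraries, for the 41 tested chromatin genes in rows ordered by role and libraries in columns; bars on the right give exon length in kb. Control 1 and ML 9 are blue for most long genes, FL 5 is red, and ML 8 and ML 10 are paler blue. Over all 41 genes the medians are -0.59 in control 1, -0.90 in ML 9, 0.75 in FL 5, -0.30 in ML 8 and -0.50 in ML 10. Over the 19 genes of 8 kb or more they are -1.12, -1.17, 0.95, -0.52 and -0.60.

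Longer chromatin genes had lower values in ML. Over the 41 genes, exon length and the log2 fold change had a Spearman correlation of -0.69, and over all tested genes of -0.45. This is a description over genes that share the same 10 libraries, so it has no p. Over the 41 it was -0.68 without control 1 and ML 9, -0.44 with the trend on length and GC content removed and -0.36 with a surrogate variable. For the 19 genes of 8 kb or more the median log2 fold change was -1.17, against -0.49 for all 2307 genes of that length, and for the 17 genes of 4 to 8 kb it was -0.49 against -0.22 for 5045 genes. With that trend removed, these medians were -0.57 against 0.00 and -0.28 against 0.02. The median over all 41 then went to -0.40, with 30 below 0, and 5 were lower at an unadjusted p under 0.05 (12.2% of 41), where 5.43% of all genes were.

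Those 5 were Kmt2a at -1.36 (SE 0.41), Kmt2d at -1.31 (SE 0.45), Kdm4a at -0.97 (SE 0.39), Tet3 at -0.93 (SE 0.42) and Arid1a at -0.81 (SE 0.33), each with an edgeR adjusted p of 0.384. Removing the trend moved the fold of 16 of the 41 genes by over 1.5 times, and a surrogate variable that of 18. With the trend removed, 7 genes went from below to above 0: Kdm5b, Kdm1a, Kdm5a, Ep300, Ehmt2, Dnmt3b and Hdac3. With 1 surrogate variable in the fit the median was -0.18 and 31 were below 0. Kmt2a was then at -0.89, and Kmt2c alone had an unadjusted p under 0.05 in the lower direction, which 1.21% of all genes had. Without control 1 and ML 9 the median was -0.96, and 23 of 41 were lower at an unadjusted p under 0.05 (15.1% of all genes). Without ML 9 alone it was -0.67, with 7 of 41 (3.44%).

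**Figure D4:**
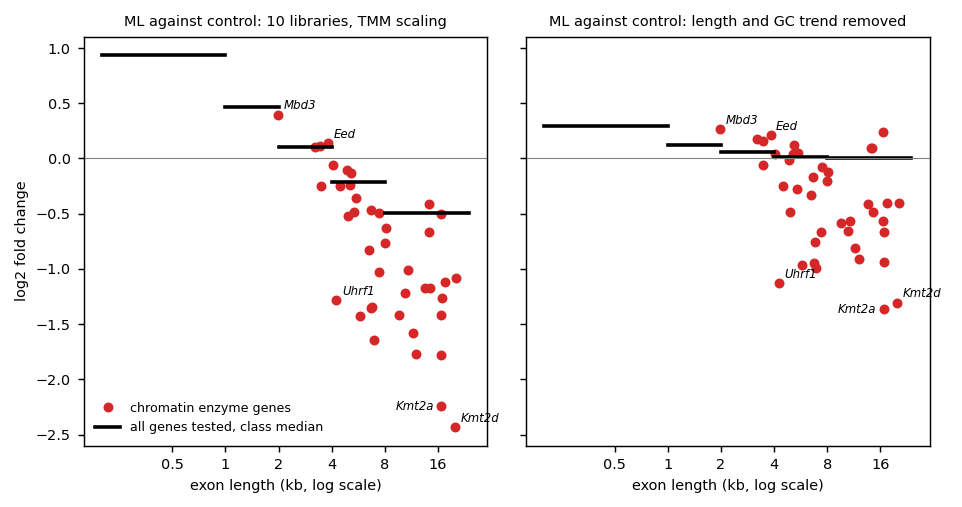
Log2 fold change of ML against control for 41 chromatin genes against exon length in kb on a log axis, as fitted on all 10 libraries (left) and with each library's length and GC trend removed (right). Black bars are the medians of all tested genes in 5 length classes. On the left the genes of 8 kb or more have a median of -1.17, where the bar of their class is at -0.49, and on the right the bar is at 0.00 and Kmt2a and Kmt2d remain the lowest of the long genes.

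**Figure D5:**
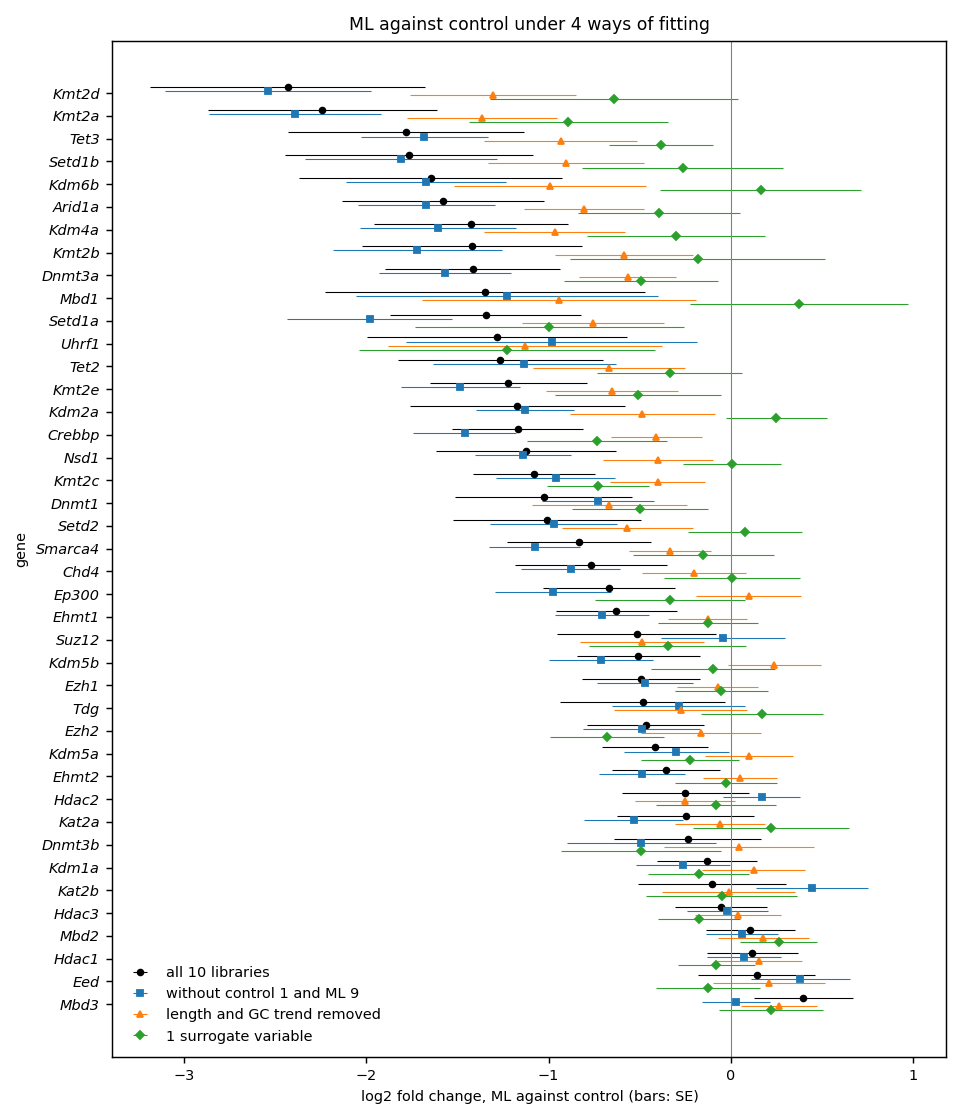
Log2 fold change of ML against control with its SE for each of the 41 genes, from the fit on all 10 libraries, without control 1 and ML 9, with the length and GC trend removed, and with 1 surrogate variable. Leaving out the 2 libraries moves the median from -0.83 to -0.96, removing the trend moves it to -0.40 and the surrogate variable to -0.18.

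The comparison of FL with control asks the same of offspring of fathers without the hepatic insulin receptor. No chromatin gene passed the test in FL livers, and fold changes lay between -0.37 and 0.69 on the log2 scale. By edgeR 0 of 41 passed, where 0.0135% of all genes did, and 0 of 41 had an unadjusted p under 0.05 (3.53% of all genes, 1.9% lower and 1.63% higher). By DESeq2 and by limma-voom 0 of 41 had an adjusted p under 0.05, where 0.344% and 0.00675% of all genes did. The groups overlapped for all 41 (2.92% of all genes did not overlap and were lower in FL, 2.79% higher). The median log2 fold change was 0.11, with 13 of 41 below 0 (55.3% of all genes), and the edgeR adjusted p of every one of the 41 was 0.9997 or 0.9998. Without control 1, Hdac1 alone did not overlap, with FL higher (5.9% of all genes), and 0 of 41 lay entirely lower (5.78%). The median was then -0.09 with 26 below 0, and without FL 5 it was -0.12 with 25 below 0, so 1 library sets its sign. With the length and GC trend removed it was 0.08 with 15 below 0, without control 1 and ML 9 -0.09 with 26 below 0, and neither change moved the fold of a gene by over 1.5 times. FL and ML are compared with the same 4 controls.

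The 5 genes with the lowest p in FL were Hdac3, Ezh2, Kat2a, Uhrf1 and Setd1b. Hdac3, a class I histone deacetylase gene (ENSMUSG00000024454, chromosome 18, 37935844 to 37955016), was at 41.9, 35.1, 29.9 and 38.7 CPM in controls, 26.8, 35.3 and 26.4 CPM in FL and 31.7, 37.2 and 36.2 CPM in ML. FL 5 and FL 7 lay under the lowest control and FL 6 within the control range. The log2 fold change was in FL -0.30 (SE 0.25, edgeR adjusted p 0.9997). Ezh2 was at -0.37 (SE 0.32), with FL 6 the lowest of the 10 libraries. Kat2a (ENSMUSG00000020918, chromosome 11, 100704746 to 100712465) was at 5.98, 15.3, 13.4 and 20.5 CPM in controls, 17.04, 23.5 and 15.0 CPM in FL and 11.7, 12.4 and 10.8 CPM in ML, with control 1 the lowest of all. In FL its log2 fold change was 0.42 (SE 0.37). Uhrf1 was at 0.69 (SE 0.66) through FL 7, and at -0.51 without that library, and Setd1b was at 0.57 (SE 0.64).

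By role, the values in FL were small. The 4 DNA methyltransferase and maintenance genes were above 0, with Dnmt1 at 0.35 (SE 0.47), Dnmt3a at 0.13 (SE 0.46) and Dnmt3b at 0.28 (SE 0.39). Tet2 and Tet3 were at -0.20 (SE 0.54) and -0.03 (SE 0.61). The 7 H3K4 methyltransferase genes had a median of 0.00 and a range of -0.15 to 0.57, with Kmt2a at 0.00 (SE 0.57), Kmt2d at -0.15 (SE 0.69) and Kmt2c at -0.09 (SE 0.33). The 4 Polycomb genes were below 0 (-0.37 to -0.02) and the 6 demethylase genes above 0 (0.11 to 0.44, Kdm4a at 0.44 with SE 0.51), and Crebbp was at -0.07 (SE 0.35). Some of these signs changed without control 1. Suz12 was then at 0.04, Eed at 0.25, Kdm2a at -0.02, Kdm5b at -0.03, Kdm6b at -0.15 and Dnmt3a at -0.16. The other Polycomb, demethylase and DNA methyltransferase and maintenance genes kept their sign. FL 7 differed from FL 5 and FL 6 in the H3K4 genes: Kmt2a was at 6.93 CPM there against 20.4 and 19.2 CPM, Kmt2d at 14.9 against 63.0 and 60.3 CPM and Setd1b at 10.4 against 42.2 and 35.3 CPM.

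The direct comparison of FL with ML asks whether the offspring differ by which parent lacked the receptor, and it does not use the control libraries other than for the spread. Many chromatin genes had higher values in FL, and none passed. By edgeR 0 of 41 passed (0.00675% of all genes), as by limma-voom, and by DESeq2 0 of 42, where 0.117% of all genes did. At an unadjusted p under 0.05, 19 of 41 were higher in FL (46.3%, against 7.59% of all genes) and 0 lower (12.4%). All FL libraries lay above all ML libraries for 23 of 41 (56.1%, against 16.6% of all genes), and below them for 0 (15.1%). The median log2 fold change was 1.03, against 0.04 over all genes.

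The 5 lowest p in this comparison belonged to Kmt2a, Kdm4a, Setd1b, Dnmt3a and Kmt2d. Kmt2a was at 2.24 (SE 0.65), Kdm4a at 1.86 (SE 0.56), Setd1b at 2.34 (SE 0.72), Dnmt3a at 1.55 (SE 0.50) and Kmt2d at 2.28 (SE 0.78), each with an edgeR adjusted p of 0.238. For these 5 genes the 2 groups did not overlap. Dnmt1 was at 1.38 (SE 0.52), Uhrf1 at 1.97 (SE 0.75), Tet3 at 1.75 (SE 0.67), Kmt2c at 0.99 (SE 0.35) and Crebbp at 1.10 (SE 0.38), again at an edgeR adjusted p of 0.238. Uhrf1 overlapped between the groups and was at 0.78 without FL 7. Dnmt3b was at 0.51 (SE 0.43, edgeR adjusted p 0.473), Tet2 at 1.06 (SE 0.59, adjusted p 0.301), Ezh2 at 0.10 (SE 0.34, adjusted p 0.882), Hdac3 at -0.25 (SE 0.27, adjusted p 0.583) and Kat2a at 0.67 (SE 0.40, adjusted p 0.331).

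Without ML 9 the FL and ML libraries did not overlap for 26 of 41 with FL higher (21% of all genes) and for Kat2b with FL lower (18.9%), and the median was 0.79. At an unadjusted p under 0.05, 10 of 41 were then higher in FL (2.74% of all genes). Without control 1 as well, 22 of 41 were higher (10.7%) and 0 lower (8.69%). With the length and GC trend removed the median was 0.45, with 8 of 41 at an unadjusted p under 0.05 and higher (5.47% of all genes), Kmt2a at 1.39 (SE 0.43), Setd1b at 1.44 (SE 0.45) and Kdm4a at 1.41 (SE 0.41). The removal moved the fold of 17 of the 41 by over 1.5 times, among them Kmt2d to 1.14, Tet3 to 0.91, Dnmt3a to 0.66, Tet2 to 0.44, Crebbp to 0.26 and Kmt2c to 0.15. With 1 surrogate variable the median was 0.23 and 1 of 41 was higher at that p (0.547% of all genes). Without FL 5 it was 0.68, with 5 of 41 at that p (2.21% of all genes).

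Other chromatin genes, and genes for methyl donor and cofactor supply, were read from lists that hold none of the 42. The supply list held 24 of the 198 tested genes. Of the 198, 0 passed by edgeR and 0 by limma-voom in any of the 3 comparisons. DESeq2 called Gadd45g alone, in FL against control. At an unadjusted p under 0.05, 26 were lower and 5 higher in ML (13.1% and 2.53% of 198, against 7.33% and 8.81% of all genes). In FL 3 were lower and 3 higher (1.52% each, against 1.9% and 1.63%), and in FL against ML 33 were higher and 7 lower (16.7% and 3.54%, against 7.59% and 12.4%). The supply list gave 3 of the lower genes in ML, and 1 lower and 1 higher in FL. In FL against ML it gave 3 lower and 2 higher. Of 31 other chromatin remodeller genes tested, 29 were below 0 in ML, at a median of -0.67 on the log2 scale, and 19 of 31 with a median of -0.10 once the trend was removed. Chd2 was at -1.52 (SE 0.48) and Chd6 at -1.67 (SE 0.54), or -0.81 and -0.85 with the trend removed, with exon lengths of 14300 and 19093 bp. Of 27 other acetyltransferase and complex genes, 23 were below 0 in ML (median -0.68, or -0.21 with the trend removed), with Kat6b at -1.55 (SE 0.53), or -0.82 with the trend removed.

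Partner subunits of the H3K4 methyltransferases formed a further list. Of 12 tested, 8 were below 0 in ML with a median of -0.24, or 0.01 without control 1 and ML 9 and -0.03 with the trend removed. The lowest p belonged to Ncoa6 at -1.49 (SE 0.53) and Hcfc1 at -1.35 (SE 0.49), or -0.94 and -0.77 with the trend removed, with exon lengths of 9744 and 8360 bp. Dpy30, a core subunit with 1146 bp of exon, was at -1.51 (SE 0.51) in FL against ML, and had 78.1 CPM in ML 9 against 23.6 and 28.8 CPM in ML 8 and ML 10. Its value was -0.79 without control 1 and ML 9 and -0.64 with the trend removed. Of 26 other Polycomb genes 16 were below 0 in ML (median -0.19, or -0.02 with the trend removed), with Cbx8 at 0.95 (SE 0.38) and Phc2 at 0.63 (SE 0.29). Phc2 was highest in ML 9. Its value was 0.28 without control 1 and ML 9 and 1.00 with the trend removed. Of 22 other histone methyltransferase genes, for lysine or arginine, 16 were below 0 (median -0.44, or 0.08 with the trend removed). Ash1l was at -1.40 (SE 0.50), or -0.77 with the trend removed, and Smyd2 at 0.71 (SE 0.26).

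Of 16 other demethylase genes 13 were below 0 in ML (median -0.42), and 9 with a median of -0.01 with the trend removed. Kdm3b was at -0.95 (SE 0.41) and Jmjd1c at -1.02 (SE 0.47), or -0.23 and -0.44 with the trend removed. Of 29 other deacetylase and corepressor genes 21 were below 0 (median -0.45), and 17 with a median of -0.16 with the trend removed. Gatad2b was at -1.30 (SE 0.48) and Sap130 at -0.92 (SE 0.37), or -0.73 and -0.31 with the trend removed.

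Genes for methyl donors and cofactors were mixed. Of 24 tested, 14 were below 0 in ML and 16 in FL, with medians of -0.21 and -0.19. Acss2, which makes acetyl-CoA from acetate, was at 172, 118, 122 and 167 CPM in controls, 66.6, 124 and 65.4 CPM in FL and 83.1, 51.6 and 61.1 CPM in ML. The ML libraries lay below all controls, and FL 6 within the control range. Its log2 fold change was -1.15 (SE 0.33) in ML and -0.76 (SE 0.33) in FL, with edgeR adjusted p of 0.302 and 0.9997. Cbs, the first enzyme of transsulfuration, was at -1.28 (SE 0.41) in ML.

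Among 12 other DNA methylation genes tested, 11 were below 0 in ML (median -0.42, or -0.17 with the trend removed). In FL, Gadd45g, a stress-induced gene linked to active DNA demethylation, was at 88.1, 237, 85.5 and 152 CPM in controls, 8.19, 27.9 and 6.06 CPM in FL and 32.1, 23.1 and 145 CPM in ML. All FL libraries lay below all controls, and ML 10 lay within the control range. Its log2 fold change in FL was -3.32 (SE 0.79, edgeR adjusted p 0.575, DESeq2 adjusted p 0.00120). It was -3.41 with the length and GC trend removed. Gadd45b was at -3.50 (SE 1.21) in FL, where control 2 alone reached 44.7 CPM and control 4 had 0.919 CPM. Gadd45a was at -2.42 (SE 0.88) in ML, where control 2 reached 36.4 CPM and control 4, at 1.97 CPM, lay within the ML range of 1.43 to 4.33 CPM. Mbd6 was at -2.02 (SE 0.82) in ML, with control 1 below all ML libraries.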

How the data were processed

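Per the labels' protocols, the libraries were directional and made from polyadenylated liver RNA, with paired-end sequencing. The deposited values are raw counts per gene, made by the authors with STAR and featureCounts on GRCm38, per the submitters' processing notes. Versions, annotation release and strand setting were not given in the sources used here, so overlapping genes, antisense ones included, cannot be told apart.

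Symbols, coordinates and exon lengths came from GENCODE M21, which matched 45229 of 46071 rows and all 42 genes. Totals were 18655506 to 39379940 counts per library, and 2 libraries of a group differed by a chi-square per degree of freedom of 82.5 to 573, so no pair agreed within counting noise. edgeR 4.0.16 (R 4.3.3) was run on all 10 libraries with TMM factors and filterByExpr at a minimum count of 10. It used a coefficient per group and a robust quasi-likelihood F test. This test was also run on simulated data. Those data held no difference between libraries in the balance of long and short genes, so they cannot speak to it. The fit covered 14820 genes, with 7 residual degrees of freedom and a common biological coefficient of variation of 0.448. Tests were two-sided, with Benjamini-Hochberg adjustment over all genes and a threshold of 0.05. The standard error is the log2 fold change divided by the square root of F.

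The alternatives were DESeq2 1.42.0, limma-voom (limma 3.58.1), RLE size factors, no filter, the compared groups alone, each library left out, control 1 and ML 9 left out together, the dependence on exon length and GC content removed in each library (a spline with 4 degrees of freedom), and 1 surrogate variable (sva 3.50.0). The 42 genes, the 9 lists of chromatin and cofactor genes and the 9 marker lists were chosen with earlier results of these data known. Values in every library are printed for the 5 genes with the lowest p in each comparison and for Dnmt1, Uhrf1, Dnmt3a, Dnmt3b, Tet1, Tet2, Tet3, Kmt2a and Ezh2, and at most 2 genes are named per list and comparison, by lowest p, and the results of some list genes are left out here. Other values shown per library (Mbd1, Gadd45a, Dpy30, the ratios within pairs) were picked after they were seen. Promoter windows and sequences are from RefSeq on GRCm38.p6. The end of the RefSeq window was found in a transcript of the same gene for 30 of 31 genes.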

Additional observations from a re-analysis of the deposited data

Results flagged for a closer look

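Among the controls, 43 sets of 4 values were examined for a library far from the rest (the total counts and the 42 genes), and chance flags about 1 in 20 such sets. Dnmt3b was at 1.3 CPM in control 4 against 0.841 to 0.912 CPM in the other controls. Mbd3 was at 38.2 CPM in control 1 against 48.2 to 49.4 CPM. The total count of control 1 was 18655506 against 37292273 to 39379940.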

How the results depend on the processing

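No paired analysis was possible because the replicate numbers run over the whole series and the groups share none. The count of genes past the threshold moved with the method. Against 2 in FL against control, DESeq2 gave 54, limma-voom 1 and no filter 1, with 0 to 3 when each library was left out. Against 0 in ML, DESeq2 gave 56 and no filter 3, with 0 to 1 by leaving out a library. Against 1 in FL against ML, DESeq2 gave 31, no filter 2, the 2 groups alone 0 and the removed trend 2, with 0 to 2 by leaving out a library. The median of the 41 genes was -0.18 with a surrogate variable in ML, and 0.45 with the trend removed and 0.23 with a surrogate variable in FL against ML.

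A change of sign was counted only for genes that lay over 1 SE from 0 at first, a limit chosen after the data were seen. Without it, 17 of 41 genes changed sign in FL against control without control 1, 10 in ML and 8 in FL against ML with a surrogate variable, and 7 in each of the latter 2 comparisons with the trend removed. With the trend removed, Kdm5b was at 0.24, Kdm5a at 0.10, Ep300 at 0.10 and Ehmt2 at 0.049 in ML, and Kdm5b at -0.15, Kdm5a at -0.017, Ezh1 at -0.066, Ep300 at -0.12 and Ehmt2 at -0.14 in FL against ML. With a surrogate variable, Chd4 was at 0.0075, Setd2 at 0.076, Tdg at 0.17, Kdm6b at 0.16, Nsd1 at 0.0051, Mbd1 at 0.38 and Kdm2a at 0.25 in ML, and Tet2 at -0.032, Setd2 at -0.18, Tdg at -0.049, Ezh1 at -0.11, Mbd1 at -0.47 and Kdm2a at -0.022 in FL against ML. Uhrf1 in FL ranged from -0.51 without FL 7 to 1.07 without FL 5. The cause was not tested. With 3 or 4 libraries a group, the depth limits Tet1, Uhrf1 and Dnmt3b, which rest on at most 109 counts.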
